A study of Mus musculus with 7 samples.

Results

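Kinesins and dynein are the motors that carry cargo along microtubules, and their genes were chosen here by name: the kinesin heavy chains (Kif and Kifc symbols), the kinesin light chains (Klc1 to Klc4), the chains of cytoplasmic dynein 1 and dynein 2 (Dync1 and Dync2 symbols), the dynein light chains (Dynll, Dynlrb and Dynlt symbols) and the dynactin subunits Dctn1 to Dctn6. The rule took 66 of the 27998 genes in the count table. Over all kept cells, 46 of the 66 had at least 50 unique molecular identifiers (UMIs, each standing for 1 captured mRNA molecule), 17 had between 1 and 49, and Kif12, Kif2b and Kif27 were listed at 0.

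The cells were oligodendrocyte lineage cells (OLCs) of the cortex of mice at P90 on a C57BL/6-B6CBA background. The labels give the region as motor and cingulate cortex, and the paper's methods give it as neocortex. The cells were sorted for GFP or TdTom, in 3 single-cell libraries with 1 library per condition. All mice carried Emx1-Cre, which recombines in dorsal forebrain progenitors, and the Sox10-GFP-TdTom reporter, which marks recombined cells with TdTom and the others with GFP. Control dOLCs were the TdTom+ cells of dorsal origin and control vOLCs the GFP+ cells of ventral origin, both from the Emx1-Cre:Sox10-GFP-TdTom mice. Ectopic vOLCs were the GFP+ cells of mice that carried Emx1-Cre, Sox10-GFP-tdTom and, in addition, Sox10-GFP-DTA, in which diphtheria toxin A kills recombined Sox10-expressing cells, which leaves ventral cells in the dorsal cortex. The labels give 4 control and 2 ablated mice pooled without a tag, so there was no replicate of any condition and no test between conditions. Every interval below is a 95% exact interval that covers counting error only, and the reporter and toxin transcripts were not in the count table, so the sort labels could not be checked.

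Most kinesins walk towards the growing, outward ends of microtubules, and cytoplasmic dynein 1, with its activator dynactin, walks back towards the cell centre. Oligodendrocytes depend on this traffic because myelin proteins, membrane and some mRNAs, that of myelin basic protein among them, are moved far out into the processes that wrap axons. Kif1b, a kinesin-3 motor, is known for localising myelin mRNA. A separate group of kinesins builds the mitotic spindle and is made in dividing cells.

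For the mitotic kinesins, the letters around the start of the gene were also searched. Genes of the late cell cycle often carry a CHR element (TTTGAA, or TTCAAA on the other strand) near the start and CCAAT boxes (CCAAT, or ATTGG on the other strand) before it. RefSeq windows of 300 bases on GRCm38.p6, from 250 bases before to 50 after each start, were found for 12 of the 13 mitotic kinesins. Kif20a had no entry. The 3 kinesins with at least 20 UMIs in cycling precursors, and Kif11, the motor that pushes spindle poles apart, are printed 5′ to 3′ on the strand of the gene, with CHR and CCAAT letters in capitals. They lie at chr7:127042371-127042670 (Kif22, minus strand), chr19:34922108-34922407 (Kif20b, plus strand), chr9:61946750-61947049 (Kif23, minus strand) and chr19:37376132-37376431 (Kif11, plus strand).
Kif22: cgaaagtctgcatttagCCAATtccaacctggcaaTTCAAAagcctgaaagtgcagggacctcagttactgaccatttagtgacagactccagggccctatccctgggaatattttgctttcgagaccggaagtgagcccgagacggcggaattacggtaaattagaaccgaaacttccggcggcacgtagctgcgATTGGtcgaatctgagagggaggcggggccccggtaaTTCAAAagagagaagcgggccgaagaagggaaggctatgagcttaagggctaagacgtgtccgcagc
Kif20b: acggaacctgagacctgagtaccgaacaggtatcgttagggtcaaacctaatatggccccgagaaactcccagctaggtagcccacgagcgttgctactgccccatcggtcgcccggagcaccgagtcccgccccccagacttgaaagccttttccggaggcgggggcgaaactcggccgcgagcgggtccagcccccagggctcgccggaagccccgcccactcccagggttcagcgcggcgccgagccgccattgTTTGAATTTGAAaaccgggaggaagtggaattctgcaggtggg
Kif23: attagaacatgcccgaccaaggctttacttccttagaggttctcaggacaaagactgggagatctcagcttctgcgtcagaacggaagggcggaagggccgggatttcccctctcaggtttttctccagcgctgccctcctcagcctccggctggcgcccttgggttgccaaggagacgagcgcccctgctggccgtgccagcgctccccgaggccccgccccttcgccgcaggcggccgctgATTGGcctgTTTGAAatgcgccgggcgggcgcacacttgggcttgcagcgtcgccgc
Kif11: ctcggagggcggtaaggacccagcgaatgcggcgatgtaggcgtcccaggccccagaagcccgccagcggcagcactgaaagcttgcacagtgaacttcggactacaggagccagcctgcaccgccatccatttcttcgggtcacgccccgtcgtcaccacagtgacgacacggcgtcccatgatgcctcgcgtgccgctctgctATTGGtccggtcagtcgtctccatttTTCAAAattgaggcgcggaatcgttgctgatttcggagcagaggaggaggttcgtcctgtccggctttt
Kif22 held 2 CHR matches and 2 CCAAT matches, Kif20b held 2 CHR matches side by side and no CCAAT match, and Kif23 and Kif11 held 1 of each. A CHR match was present in 10 of the 12 mitotic windows (83.3%), in 4 of 45 windows of the other motor genes (8.89%) and in 17.9% of all 32851 RefSeq windows. The 45 windows belong to 38 genes, of which 4 had a CHR match (10.5%). A CCAAT match was present in 8 of 12 (66.7%), against 17 of 45 (37.8%) and 37.4% of all windows. Both were present in 7 of 12 (58.3%), against 6.95% of all windows. The windows of Kif2c, Kif14 and Kif4, each with a CHR match, lie inside the gene as annotated on GRCm38, so they may not stand at its main start. The motifs can share a letter at their ends, which no match in the 4 printed windows did, and a match describes the letters of the window only.

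The 9291 kept cells, of 10081 barcodes, comprised 5804 dOLCs and 925 vOLCs of the controls and 2562 ectopic vOLCs, with 23078181, 4846391 and 14293675 UMIs and a median of 3489.5, 5022 and 5318.5 UMIs per cell. The cluster names were the study's: oligodendrocyte precursor cells (OPCs), cycling OPCs, committed and newly formed cells (COP/NFOL/MFOLa), myelin-forming cells (MFOLb) and the mature classes MOL1, MOL2 and MOL5/6. The OPC marker list (Pdgfra, Cspg4, Ptprz1, Lhfpl3 and C1ql1) summed to 8281 to 10516 CPM (UMIs of the gene or list per 1e+06 UMIs of the class) in OPCs and 58.3 to 124 CPM in MOL5/6 cells. The MOL5/6 list (Ptgds, Il33, Apod, Grm3 and Car2) summed to 41229 to 53585 CPM in MOL5/6 cells and 4493 to 7953 CPM in OPCs. Microglial, mural and endothelial lists were at or below 17.7 CPM in both classes, and the astrocyte list summed to 86.6 to 266 CPM. The neuron list summed to 1090 to 1262 CPM in OPCs and 7.88 to 18.3 CPM in MOL5/6 cells. The libraries shared 24 (ectopic vOLC and control dOLC), 6 (ectopic vOLC and control vOLC) and 9 (the controls) cell barcodes.

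Motor transcripts made up 0.461%, 0.423% and 0.379% of the UMIs of the dOLC, vOLC and ectopic libraries. The first question was how the ectopic vOLCs of the ablated mice differed from the controls in MOL5/6, the class with most cells (3777, 561 and 1842 cells in the order control dOLC, control vOLC, ectopic vOLC, which is kept throughout). Levels are given in CPM of summed UMIs, which count transcripts at their 3′ ends and were not divided by length, so they compare a gene across libraries and not 1 gene with another. A ratio was called when it passed 1.5-fold (0.58 on the log2 scale) in a gene with at least 50 UMIs in the class. Against control dOLCs, 9 of 42 motor genes past that filter were lower in ectopic vOLCs, or 21.4%, where 20.2% of all 10393 genes were lower. None of the 42 was called higher, where 1.96% of all genes were. Against control vOLCs, 7 were lower (19.0% of all genes) and 1 was higher (4.24% of all genes). The share of motor genes called lower was thus near that of all genes in both comparisons, which share the ectopic library. Between the controls, 1 motor gene was lower in vOLCs (6.74% of all genes) and 2 were higher (5.09%).

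**Figure D1:**
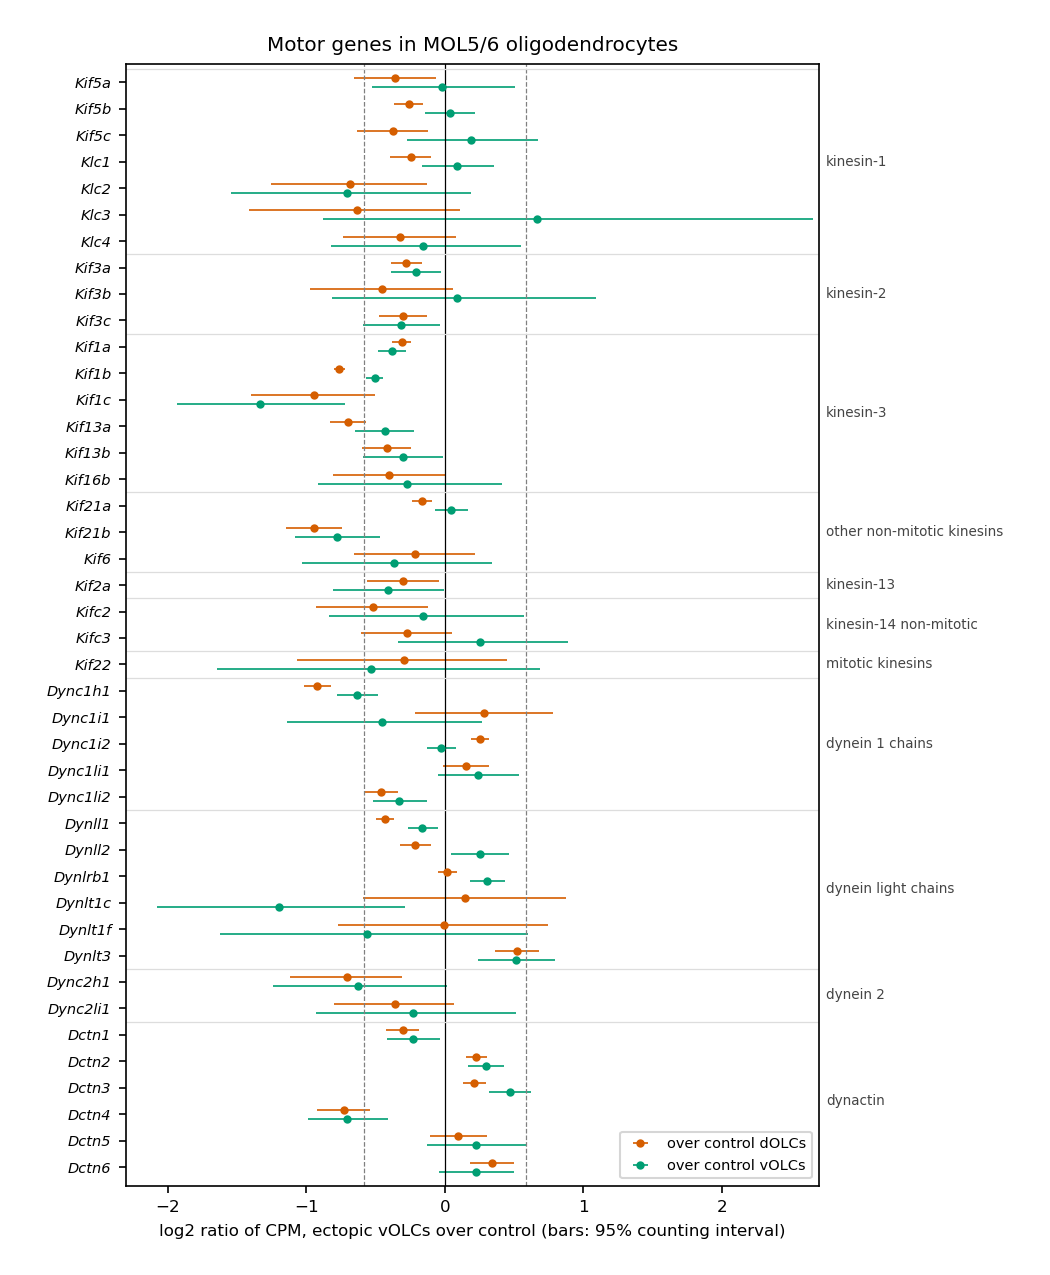
Log2 ratio of CPM in MOL5/6 cells for the 42 motor genes with at least 50 UMIs, grouped by role, ectopic vOLC over control dOLC and over control vOLC, with 95% intervals for counting error; dashed lines mark 1.5-fold. Kif21b, Kif1c and Dync1h1 lie farthest to the left against control dOLCs (-0.94, -0.94 and -0.92) and Dynlt3 farthest to the right (0.52).

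Kif1b (chromosome 4, 149176319 to 149307693, minus strand, GRCm38) was counted most deeply of the members in MOL5/6, with 18423, 3035 and 7747 UMIs. Its level was 1241, 1039 and 733 CPM. The ectopic library was the lowest and the dOLC library the highest. The log2 ratio of ectopic vOLC was -0.76 (-0.80 to -0.72) over control dOLC and -0.50 (-0.57 to -0.44) over control vOLC, and that of the controls, vOLC over dOLC, was -0.26 (-0.31 to -0.20). Kif1b is among the genes that the study lists for these cells, so its direction is not independent evidence.

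Among the other kinesin-3 motors, Kif13a, which moves endosomal cargo, was counted at 1538, 252 and 675 UMIs, or 104, 86.3 and 63.8 CPM, with log2 ratios of -0.70 (-0.83 to -0.57) over control dOLC and -0.43 (-0.65 to -0.22) over control vOLC. Kif1c, a vesicle motor, had few UMIs (159, 41 and 59; 10.7, 14.0 and 5.58 CPM) and log2 ratios of -0.94 (-1.40 to -0.50) and -1.33 (-1.93 to -0.72). Kif1a, a carrier of synaptic vesicle precursors in neurons, stood at 340, 357 and 274 CPM and was not called (log2 -0.31 and -0.38). All 6 kinesin-3 members were below 0 against both controls, as were 6720 of all 10393 genes against control dOLCs and 6221 against control vOLCs. Of the 6, 3 were called lower against control dOLCs (20.2% of all genes) and 1, Kif1c, against control vOLCs (19.0%), and with 6 members nothing is read from these counts.

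Kif21b, a kinesin-4 motor that restrains microtubule growth, was at 51.1, 45.5 and 26.6 CPM from 758, 133 and 281 UMIs. It was called lower in ectopic vOLCs against both controls, at log2 -0.94 (-1.15 to -0.74) and -0.78 (-1.08 to -0.47). Its close relative Kif21a was at 285, 246 and 254 CPM and was not called, at log2 -0.16 (-0.23 to -0.09) and 0.05 (-0.07 to 0.17).

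All 7 kinesin-1 genes passed the filter. Kif5b, the heavy chain found in most cell types, was at 137, 111 and 114 CPM (2029, 325 and 1208 UMIs), with log2 ratios of -0.26 (-0.36 to -0.16) over control dOLC and 0.04 (-0.14 to 0.22) over control vOLC. Klc2, a light chain that binds cargo, was past 1.5-fold against both controls from 90, 18 and 40 UMIs, at -0.68 (-1.26 to -0.13) and -0.70 (-1.54 to 0.19), the second interval including 0. Klc3 was past 1.5-fold in opposite directions against the controls, at -0.63 (-1.41 to 0.11) and 0.67 (-0.88 to 2.66) from 50, 4 and 23 UMIs, and both intervals included 0. Of the kinesin-2 motors, Kif3a was at 118, 112 and 97.1 CPM and none of the 3 tested (Kif3a, Kif3b and Kif3c) was called. The microtubule depolymerase Kif2a (log2 -0.30 and -0.41) and the minus-end motors Kifc2 and Kifc3 were not called either.

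In cytoplasmic dynein 1, the heavy chain that holds the motor and the smaller chains did not move alike. Dync1h1 (chromosome 12, 110601452 to 110666945, plus strand) was at 215.5, 176 and 114 CPM from 3198, 515 and 1205 UMIs. Its log2 ratio was -0.92 (-1.02 to -0.82) over control dOLC and -0.63 (-0.78 to -0.48) over control vOLC, and the controls differed by -0.29 (-0.43 to -0.15). Of the intermediate chains, which bind dynactin, Dync1i2 was at 265, 322 and 316 CPM, with log2 ratios of 0.25 (0.19 to 0.32) and -0.03 (-0.13 to 0.08), and Dync1i1 had 76, 25 and 66 UMIs (0.29 and -0.46). Of the light intermediate chains, which bind cargo adaptors, Dync1li1 was at 0.15 and 0.24 and Dync1li2 at -0.46 and -0.33. Dync1h1 was the only 1 of these 5 chains to be called, and was called against both controls.

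Of the light chains, Dynll1, which also serves as a dimerising hub for many other proteins, was at 378, 314 and 281 CPM (log2 -0.43 and -0.16). Dynll2 was at 112, 81.5 and 97.1 CPM (-0.21 and 0.25), and Dynlrb1 at 253, 207 and 256 CPM (0.02 and 0.31). Dynlt3 (chromosome X, 9654267 to 9663003, minus strand), a light chain of the Tctex type, was at 44.3, 44.5 and 63.5 CPM from 657, 130 and 671 UMIs. It was the highest ratio of the 42 against control dOLCs, at 0.52 (0.36 to 0.68), with 0.51 (0.24 to 0.79) against control vOLCs, and stayed under 1.5-fold in both. The controls did not differ in Dynlt3 beyond counting error (0.01, -0.27 to 0.28). Dynlt1c was called higher in control vOLCs than in control dOLCs (1.35, 0.47 to 2.18) and lower in ectopic than in control vOLCs (-1.20, -2.07 to -0.29). It is 1 of 4 near-identical Dynlt1 copies whose reads can be split or lost in counting, and its 38, 19 and 30 UMIs are uncertain. The dynein 2 heavy chain Dync2h1, which powers return transport in cilia, had 172, 32 and 75 UMIs and ratios of -0.71 (-1.12 to -0.31) and -0.63 (-1.24 to 0.02).

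The 6 dynactin subunits were split. Dctn4, of the pointed-end complex that caps dynactin's short actin-like filament, had 755, 146 and 325 UMIs, with intervals of 47.3 to 54.6, 42.2 to 58.8 and 27.5 to 34.3 CPM. Its controls were alike within counting error (-0.03, -0.29 to 0.23), and the ectopic library was lower than both, at -0.73 (-0.92 to -0.54) and -0.70 (-0.99 to -0.41). Dctn1, the large subunit that grips microtubules and dynein, was at 110, 104 and 88.7 CPM (-0.30 and -0.23). Dctn2, Dctn3, Dctn5 and Dctn6 had log2 ratios between 0.10 and 0.47 against either control and none was called.

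By family, 23 of 23 kinesins and light chains past the filter were below 0 against control dOLCs, with a median of -0.36, where 6720 of all 10393 genes were below 0 and their median was -0.15. Dynein and dynactin genes had 9 below and 10 above 0, with a median of 0.02. Against control vOLCs, 16 of 23 and 11 of 19 were below 0, with medians of -0.27 and -0.16, where 6221 of all 10393 genes were below 0 with a median of -0.11, and nothing is read from these 2 counts. The count of kinesins below 0 against control dOLCs was 22 of 23 with TMM or median-of-ratios scaling, 17 of 23 when the 4 MOL5/6 subclusters were weighted equally and 13 of 23 after subtraction of the median of genes of like transcript length.

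Transcript length and subcluster makeup both moved with these ratios. Across all 10089 genes with a length, the log2 ratio of ectopic vOLC over control dOLC fell with length (Spearman's rho -0.51 across genes, which are not independent replicates), and across the 42 motor genes rho was -0.57. The median was 0.05 in the shortest of 20 length bins (up to 1023 nt) and -0.63 in the longest (from 8591 nt). Dync1h1 (14342 nt), Dync2h1 (14264 nt), Kif1b (10233 nt) and Kif21b (9254 nt) are in the longest bin. After the median of like length was subtracted, the median of the 42 was -0.00, with 21 below and 21 above 0. Kif1b was then at -0.14, Dync2h1 at -0.08, Dync1h1 at -0.29, Kif21b at -0.32, Dctn4 at -0.40 and Kif1c at -0.43, of which none passes 1.5-fold. Klc2 was at -0.61 and Klc3 at -0.71, the only members still past it. Dync1i2 was at 0.58, just under 1.5-fold, Dynlt3 at 0.44 and Dynll1 at -0.45. Against control vOLCs rho was -0.58 for the motor genes and -0.40 for all genes, and between the controls it was 0.01 for the motor genes. The part of length in the lower levels was not tested beyond this subtraction.

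**Figure D2:**
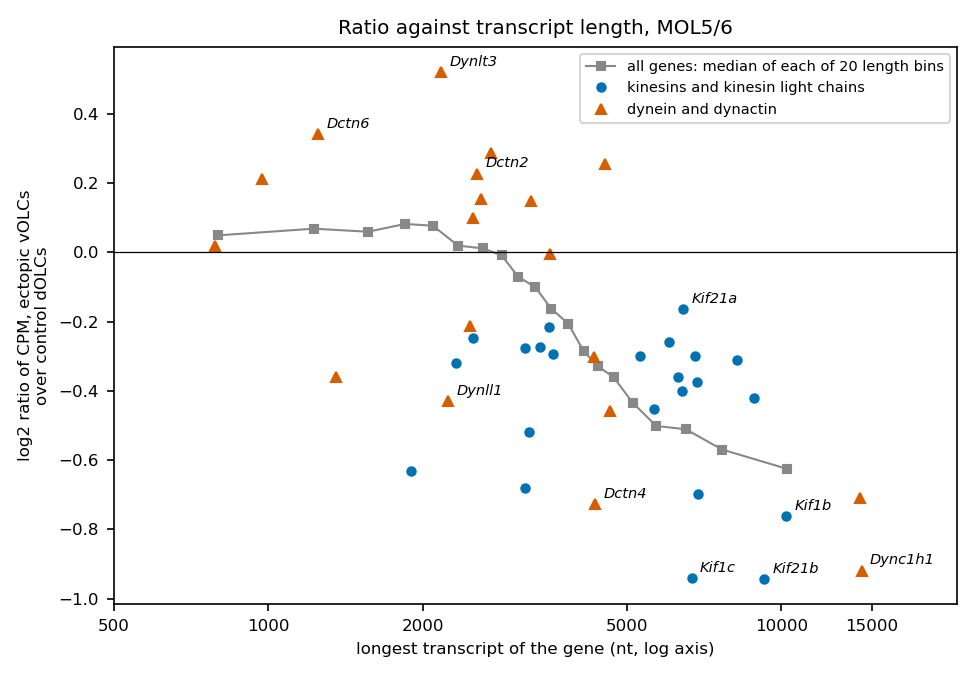
Log2 ratio of CPM in MOL5/6, ectopic vOLC over control dOLC, against the length of the longest annotated transcript in nucleotides (log axis); each point is 1 of the 42 motor genes and the grey line joins the medians of all genes in 20 length bins. The line runs from 0.05 in the shortest bin to -0.63 in the longest, and the points lie on both sides of it, 21 below and 21 above.

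The libraries filled the 4 MOL5/6 subclusters unequally. MOL5/6a held 8.82%, 42.2% and 48.9% of the MOL5/6 cells of the 3 libraries, MOL5/6b held 51.5%, 42.1% and 2.28%, MOL5/6c 24.6%, 9.45% and 3.42%, and MOL5/6d 15.1%, 6.24% and 45.4%. Kif1b differed between subclusters within each library: in control dOLCs it was at 931 CPM in a, 1409 in b, 1399 in c and 889 in d. Within each subcluster the ectopic library had the lowest value, at 694, 1246, 1144 and 725 CPM, with control vOLCs between (809, 1364, 1217 and 782). Against control vOLCs the interval of the ratio left out 0 only in a (-0.22, -0.32 to -0.12), and in b, c and d the difference was within counting error. The log2 ratio of ectopic vOLC over control dOLC was -0.42, -0.18 (-0.40 to 0.04), -0.29 and -0.29 in a to d, with intervals that left out 0 except in b, each smaller in size than the -0.76 of the whole class and under 1.5-fold.

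Dync1h1 was at -0.51, 0.01, -0.28 and -0.54 in a to d, and Dctn4 at -0.63, 0.03, -0.61 and -0.26. Kif21b was at -0.33, -0.80, 0.04 and -0.29, and Kif1c at 0.06, 0.76, 0.39 and -0.57. The values of these genes thus differed in size or sign between subclusters, where b and c hold only 42 and 63 ectopic cells. In c each of their intervals included 0, as for Dctn4 (-1.50 to 0.17) and Kif21b (-0.71 to 0.72). Dependence of the ratios on the subcluster was not tested. Dynll1 was lower in all 4 (-0.37, -0.92, -0.47 and -0.48), with intervals that left out 0. Dynlt3 was at 0.30, 0.87, 0.42 and 0.40, and only in d did the interval leave out 0 (0.14 to 0.67). With equal weight to each subcluster the ratios over control dOLC were -0.28 for Kif1b, -0.27 for Dync1h1, -0.33 for Kif21b, -0.35 for Dctn4, 0.50 for Dynlt3 and 0.34 for Kif1c. The sign of Kif1c thus turned, with 5 ectopic UMIs in c (0.39, -1.29 to 1.71), and the turn is not read further. Subclusters were drawn from the same genes, and the part of their makeup in the class-wide ratios was not tested further.

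**Figure D3:**
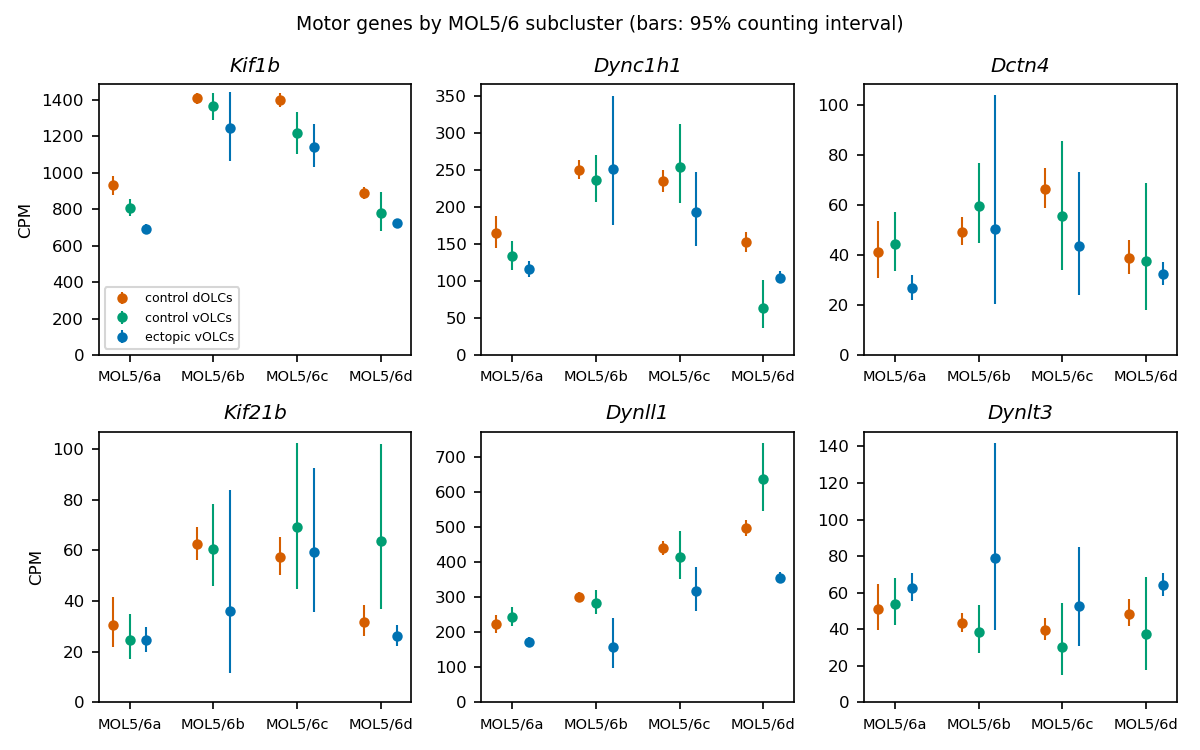
CPM of Kif1b, Dync1h1, Dctn4, Kif21b, Dynll1 and Dynlt3 in MOL5/6a to MOL5/6d for the 3 libraries, 1 point per library and subcluster with 95% intervals for counting error. Kif1b is lowest in ectopic vOLCs in all 4 subclusters (694 to 1246 CPM), within counting error of control vOLCs in b to d, and Dynlt3 lies above control dOLCs beyond counting error only in d.

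In OPCs (853, 121 and 330 cells) 7 of 37 motor genes were lower in the ectopic library against control dOLCs (8.53% of all 9070 genes) and 1 was higher (5.77%). Against control vOLCs 14 were past 1.5-fold in either direction (33.0% of all genes), of which 9 were higher (18.0%), and between the controls 9 were lower in vOLCs (14.8%) and 2 higher (11.6%). Kif1b was at 428, 309 and 240 CPM from 1123, 122 and 289 UMIs, with log2 ratios of -0.83 (-1.02 to -0.64) over control dOLC and -0.36 (-0.67 to -0.05) over control vOLC. Kif21b had 182, 30 and 54 UMIs, with ratios of -0.63 (-1.09 to -0.18) and -0.76 (-1.43 to -0.06). Dctn4 had 126, 20 and 38 UMIs, with -0.60 (-1.17 to -0.07) and -0.68 (-1.50 to 0.18). Kif21b and Dctn4 were past 1.5-fold against both controls, as in MOL5/6. Of the 9 higher against control vOLCs, 8 were among the 18 dynein and dynactin genes past the filter and 1 among the 19 kinesins and light chains, where 18.0% of all genes were higher. In examples of the 8, the control vOLC library was the low one: Dynlrb1 was at 254, 132 and 284 CPM and Dctn3 at 131, 81.1 and 139 CPM. Dync1h1, at 194, 155 and 155 CPM, was not called in OPCs. Length moved with the OPC ratios (rho -0.53 over either control for the 37 motor genes, -0.32 and -0.33 for all genes). After the median of like length was subtracted, Kif1b was at -0.63 and -0.05, Kif21b at -0.42 and -0.45 and Dctn4 at -0.54 and -0.54, so that of these only Kif1b over control dOLC was past 1.5-fold. The part of length in these ratios was not tested beyond this subtraction.

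Kif21a was also past 1.5-fold against both, from 125, 8 and 11 UMIs (47.6, 20.3 and 9.15 CPM), at -2.38 (-3.42 to -1.49) and -1.15 (-2.60 to 0.37). Transcripts of mature cells moved with the same libraries: the myelin list (Mbp, Mag and 7 others) summed to 6935, 3397 and 3134 CPM in OPCs. Kif21a gave 6.87 (5.71 to 8.18), 5.97 (2.57 to 11.8) and 2.92 (1.46 to 5.23) UMIs per 1000 myelin UMIs in OPCs, against 8.34, 6.82 and 6.54 in MOL5/6 cells. Against myelin UMIs, Kif21a was thus no higher in OPCs than in MOL5/6 cells in any library, and the part of mature-cell transcripts in its OPC ratios was not tested. Kif1b gave 61.7, 91.0 and 76.7 UMIs per 1000 myelin UMIs in OPCs against 36.4, 28.8 and 18.9 in MOL5/6 cells.

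In MOL2 cells (733, 185 and 221), 5 of 33 were lower in the ectopic library against control dOLCs (16.2% of all 7909 genes) and 1 was higher (2.52%). Against control vOLCs 8 were lower (18.1%) and 3 higher (6.98%). The libraries filled its subclusters unequally, with 498, 179 and 115 cells in MOL2a and 235, 6 and 106 in MOL2b, and the part of this makeup in the calls was not tested. Kif1b was at -0.63 and -0.46 against control dOLCs and vOLCs, and was lowest in the ectopic library in both MOL2a (1543, 1209 and 982 CPM) and MOL2b (1117, 957 and 780 CPM), where the 6 control vOLCs gave 50 UMIs and an interval (711 to 1262 CPM) that overlapped the ectopic one (722 to 841 CPM). Dync1h1 was at -0.79 and -0.46 in MOL2 as a whole, with 232, 175 and 144 CPM in MOL2a and 196, 95.7 (5 UMIs) and 110 CPM in MOL2b. Kif21b was at -1.32 and -1.39 from 77, 27 and 13 UMIs, of which 52, 27 and 2 were in MOL2a and 25, 0 and 11 in MOL2b, so its ratio to control dOLCs came from MOL2a. Dctn6 was at 0.56 and 0.98 in MOL2, with 37.2, 35.8 and 48.0 CPM in MOL2a and 65.9, 76.6 (4 UMIs) and 94.9 CPM in MOL2b. Dynlrb1, called higher against control vOLCs, was at 174, 183 and 154 CPM in MOL2a, where it was not higher, and at 353, 191 (10 UMIs) and 376 CPM in MOL2b. Length moved with the MOL2 ratios too (rho -0.59 over control dOLC and -0.68 over control vOLC for the 33 motor genes, -0.44 and -0.37 for all genes). After the median of like length was subtracted, Kif1b was at -0.15 and -0.07 and Dync1h1 at -0.30 and -0.07, neither past 1.5-fold, and Kif21b at -0.83 and -1.01. Over all 7 classes Kif1b was lowest in the ectopic library. The Kif1b interval of the ectopic library overlapped those of both controls in COP/NFOL/MFOLa and MFOLb cells. In MFOLb it met that of control dOLCs only at its upper end (744 to 977 against 965 to 1147 CPM). In cycling OPCs, with 38, 4 and 11 UMIs, it overlapped that of control vOLCs. Overlap of such intervals does not place a difference within counting error.

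Partners and adaptors of the motors that the naming rule does not take gave 33 genes in the table, of which 29 passed the filter in MOL5/6. Against control dOLCs 7 were lower, Trak1, Trak2, Bicd2, Kidins220, Mapk8ip3, Hook3 and Rhot2, and 1 was higher (Wdr34, 0.59, a dynein 2 chain), with a median of -0.10, where 20.2% of all genes were lower and 1.96% higher. Against control vOLCs 5 were lower (19.0% of all genes) and none was called higher (4.24%). The counts of lower partners are thus near the shares of all genes. Trak2, which with Rhot2 links motors to mitochondria, was at -1.25, Bicd2, an adaptor of dynein, at -0.99, and Kidins220, a membrane scaffold carried by kinesin-1, at -0.79. These values are given without counting intervals or adjustment for transcript length or subcluster makeup.

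Along the lineage, the motor genes were compared between MOL5/6 cells and OPCs within each library, which gives 3 separate readings. The clusters were drawn from all genes, so these values are a description. In all 3 libraries 5 of 45 motor genes were past 1.5-fold higher in MOL5/6 cells (9.51% of all 11437 genes), and 14 were past 1.5-fold lower (38.7%). By library, 8, 13 and 8 were higher (12.9%, 20.0% and 13.2% of all genes) and 17, 18 and 20 lower (47.8%, 49.9% and 56.6%). The 5 were Kif21a, Kif13b, Kif1b, Kif13a and Kif6. Kif1b rose from 428, 309 and 240 CPM in OPCs to 1241, 1039 and 733 CPM, by log2 1.54, 1.75 and 1.61. Its level was 678, 757 and 569 CPM in COP/NFOL/MFOLa cells, 1053, 1006 and 855 CPM in MFOLb, 1308, 1153 and 743 CPM in MOL1 and 1350, 1198 and 870 CPM in MOL2. The level was thus higher in MFOLb than in COP/NFOL/MFOLa cells in every library, though the intervals of these 2 classes overlapped in control vOLCs (586 to 963 and 752 to 1319 CPM).

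Kif21a was higher by 2.58, 3.60 and 4.79. These ratios rest on 125, 8 and 11 UMIs in OPCs, which stood no higher against myelin UMIs than in MOL5/6 cells, so their size and its differences between libraries are not read further. Kif21a was counted with 146 to 167 CPM already in COP/NFOL/MFOLa cells and 246 to 285 CPM in MOL5/6. Kif13b, a kinesin-3 with a part in myelin growth, was higher by 2.14, 3.20 and 2.04, from 30, 2 and 11 UMIs in OPCs. In proportion to myelin UMIs, Kif13b in OPCs (1.65, 1.49 and 2.92 per 1000) lay within counting error of MOL5/6 (1.48, 1.29 and 0.972) in both control libraries. Kif13a was higher by 0.90, 1.09 and 1.22. Kif6 had 1 UMI in the OPCs of each library against 119, 26 and 73 in MOL5/6 cells. Its log2 ratios were 4.40 (1.89 to 9.71), 1.81 (-0.79 to 7.17) and 3.05 (0.53 to 8.38).

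The 14 lower in MOL5/6 cells took in Kif26a, Klc2, Klc3, Kifc3, Dync2h1, Kif5a, Kif5c, Kif3a, Kif3b, Kif2a, Kif20b, Kif22, Dynlt1c and Dynlt1f. The neuron list also summed higher in OPCs than in MOL5/6 cells, and the part of such transcripts in these ratios was not tested. Kif26a, a kinesin without motor activity, had log2 ratios of -5.01, -3.89 and -6.20, from 40, 4 and 25 UMIs in OPCs to 7, 2 and 3 in more than 4 times as many MOL5/6 cells. Klc3 was at -2.61, -4.06 and -3.78, and Klc2 at -2.20, -2.52 and -2.94. Kifc3 was at 68.2, 91.2 and 65.7 CPM in OPCs and 14.3, 9.93 and 11.8 CPM in MOL5/6. The share of all genes lower in MOL5/6 depends on the scaling. With TMM factors the all-gene median stood 0.66, 0.85 and 0.92 higher, with 18 motor genes then higher (24.2% of all genes), among them all 5, and 7 lower (20.3%). Kif20b, Kif22, Kif2a, Kif3a, Kif3b, Kif5a and Kif5c were then no longer among the lower genes, and 12 of the 14 kept their sign in all 3 libraries. With cells thinned to 1000 UMIs, 7 of the 14 still passed the filter on low counts, all 7 kept their sign and 4 (Klc2, Kifc3, Dync2h1 and Kif3a) were still past 1.5-fold in all 3 libraries (29.3% of all genes), while Kif26a, Klc3, Dynlt1c and Dynlt1f were not among them. Of the 5 higher genes, 4 stayed higher (9.43%), and Kif6 no longer passed the filter.

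**Figure D4:**
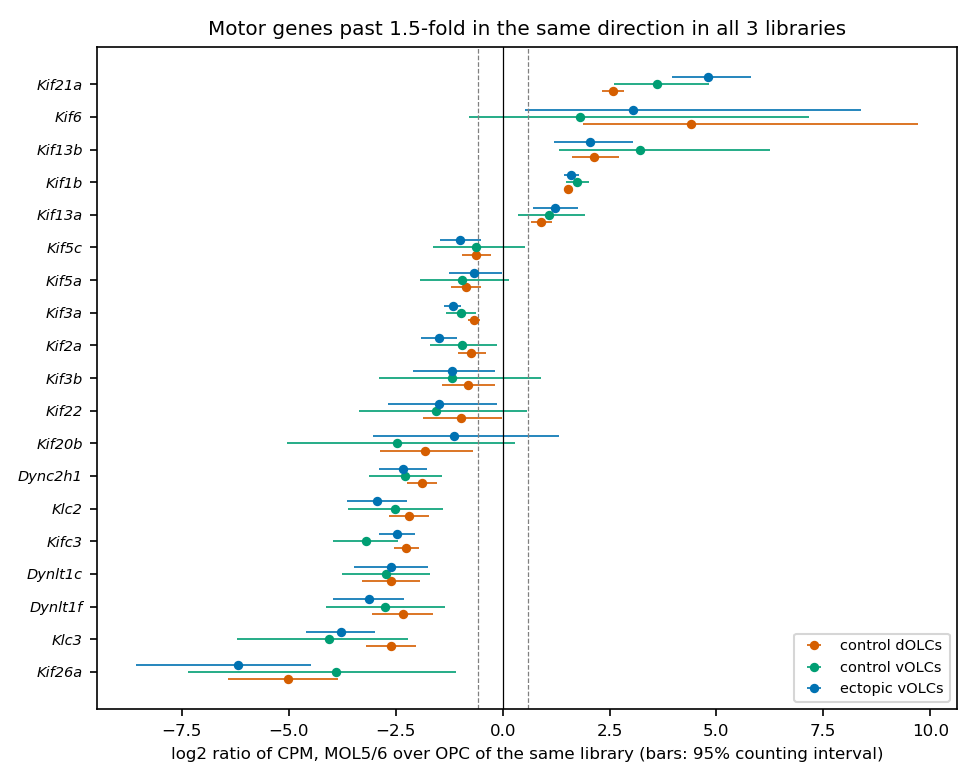
Log2 ratio of CPM, MOL5/6 over OPC, in each of the 3 libraries for the 19 motor genes past 1.5-fold in the same direction in all of them, with 95% intervals for counting error. The 5 higher genes include Kif1b (1.54, 1.75 and 1.61) and Kif21a (2.58, 3.60 and 4.79, from 125, 8 and 11 OPC UMIs). Kif26a is at -5.01, -3.89 and -6.20, below Klc3 except in control vOLCs.

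Kif19a, a kinesin of motile cilia, was named after its values were seen, because its counts gathered in the committed and newly formed cells: 68 of its 115 UMIs, or 59.1%, came from COP/NFOL/MFOLa. These were 45, 12 and 11 UMIs (90.3, 138 and 73.6 CPM), against 13, 5 and 7 UMIs (4.95, 12.7 and 5.82 CPM) in OPCs, for log2 ratios of 4.19, 3.44 and 3.66. The other 3 motor genes past 1.5-fold higher there than in OPCs in all libraries, of 4 in 40 (6.04% of all genes), were Dynll2 (1.46, 1.84 and 0.94), Kif21a and Kif1b. Another 6 of the 40 were lower there in all libraries (25.2% of all genes). MOL2 and MOL5/6 cells differed in 2 of 43 motor genes in all libraries: Kif21b was lower in MOL2 (-1.29, -1.05 and -1.67; 2.28% of all genes) and Dync1i1 higher (0.76, 0.70 and 1.12; 2.42%).

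The summed level of the mitotic kinesins was higher in the 31 cycling OPCs (17, 3 and 11 cells) than in the other OPCs or MOL5/6 cells. Cell cycle genes define that cluster, so the values describe it. The 13 summed to 187 UMIs there, or 1570 CPM (1353 to 1811), against 17.5 CPM in the other OPCs and 7.52 CPM in MOL5/6 cells. By library the sum in cycling OPCs was 1825 (1510 to 2187), 1894 (1061 to 3122) and 1167 (880 to 1519) CPM. The marker list Top2a, Mki67, Cdk1 and Birc5 was at 2683, 2652 and 2208 CPM in the same cells. The ectopic library had the lowest value of both sums, from 11 cells. Its interval for the kinesins overlapped that of control vOLCs and met that of control dOLCs only at its upper end (1519 against 1510 CPM). Such overlap does not place the difference within counting error, and no ratio of these sums is given.

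Kif22, which pushes chromosome arms towards the spindle equator, had 39 UMIs in cycling OPCs against 27 in 1304 other OPCs, a ratio of 51.2 (30.5 to 87.0). Kif20b, which acts late in cell division, had 36 against 19, a ratio of 67.2 (37.5 to 124). Kif23, of the complex that bundles the central spindle, had 20 against 1, a ratio of 709 (113 to 29379). Kif15 had 6 against 0, for which the lower limit of the ratio was 41.7, and Kif24 had 0 against 3. Kif11 had 16 against 4, a ratio of 142 (45.7 to 583). Kifc1, with 9 against 5, may share reads with Kifc5b, a close copy that the naming rule does not take. Of all 9186 genes past the filter, 20.1% were past 1.5-fold higher in cycling OPCs and 27.3% lower, against 7 and 12 of 40 motor genes. Of those 7, Kif22 and Kif20b are mitotic kinesins.

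**Figure D5:**
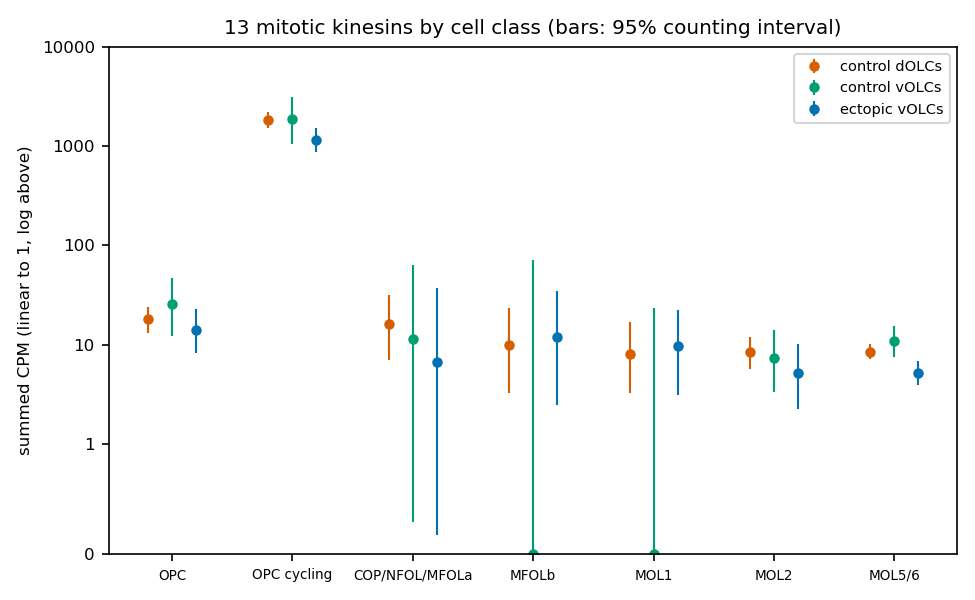
Summed CPM of the 13 mitotic kinesins in each cell class and library, with 95% intervals for counting error, on an axis that is linear to 1 CPM and logarithmic above. Cycling OPCs stand at 1825, 1894 and 1167 CPM, and pooled OPCs at 17.5 CPM.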

How the data were processed

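Single-cell RNA-seq was analysed from 3 libraries of sorted cells, 1 per condition. The authors deposited raw UMI counts per gene and barcode, made with Cell Ranger (version 2.1.1 per the labels, given differently in the methods) on mm10 from 10x 3′ libraries, and an annotation of kept cells with library, cluster and the percent of mitochondrial UMIs. The authors kept cells by genes detected and mitochondrial percent (observed: 691 to 2999 genes, at most 14.99%). No doublet step is given and none was run here. The 4 samples of nuclei carry no group used here and were not analysed.

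UMIs were summed per library and cell class (control dOLC, control vOLC, ectopic vOLC) and scaled to CPM. Log2 ratios carry 95% conditional exact binomial intervals, which cover counting error only. Cells of 1 library are not replicates, so no p-value was computed. A member was called past 1.5-fold with at least 50 UMIs in the classes compared, beside the same share of all genes. The computation recovered known folds when tested on simulated data. Lengths are the longest transcript per symbol (GENCODE M21, GRCm38), found for 97.1% of tested genes. Promoter windows are RefSeq's.

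The members, role lists, marker lists and partner list were chosen with earlier results of these data known. One gene of the myelin list is not reported here and was left out of its sums. Genes named were Kif1b, members past 1.5-fold the same way against both controls, up to 6 a direction for MOL5/6 over OPC, mitotic kinesins with at least 20 UMIs in cycling OPCs, the dynein 1 and dynactin subunits and the best counted member of each family; others were chosen after their values were seen. Alternatives were edgeR 4.0.16 TMM factors, DESeq2 1.42.0 median-of-ratios factors, mean CPM over cells, thinning to 1000 UMIs, leaving out the 6% of cells with most UMIs, a mitochondrial limit of 10%, other filters, 2-fold, equal subcluster weights and a length adjustment. Python 3.11.15, numpy 2.4.6, scipy 1.17.1, pandas 2.3.3 and R 4.3.3 were used.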

Additional observations from a re-analysis of the deposited data

How the results depend on the processing

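No paired analysis was possible because only 1 library stands for each condition; none could be left out. Of 120 alternative values of the counts and the median, 66 stayed within 1.5 times the reported count or within the interval, and 54 moved. For the median, that interval ran between the medians of the members' own counting limits, so it is not an interval of the median. Of 395 for single genes, 290 stayed, 104 moved and 1 reversed. That was Kif1c in MOL5/6 (ectopic vOLC over control dOLC), from -0.94 to 0.34 with equal subcluster weights, with 5 ectopic UMIs in MOL5/6c.

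In MOL5/6 against control dOLCs, the count higher, 0 as reported, was 1 with TMM, 1 with median of ratios, 2 with no filter and 1 with equal subcluster weights. The count lower, 9, was 4 with TMM, 3 with median of ratios, 5 when a UMI in 10% of cells was also required, 0 at 2-fold and 2 after the length adjustment. The median of members, -0.30, was -0.0019 after the length adjustment and -0.12 to -0.35 otherwise. Against control vOLCs, the count higher, 1, was 3 with TMM, 3 with median of ratios, 2 with thinned cells, 4 with no filter, and 0 with mean CPM over cells, without the 6% of cells with most UMIs, with the 10% of cells required, and at 2-fold. The count lower, 7, was 3 with TMM, 3 with median of ratios, 14 with no filter, 3 with the 10% of cells required and 2 at 2-fold. In OPCs against control dOLCs, the count higher, 1, was 2 with thinned cells, 6 with no filter, 0 with the 10% of cells required and 0 at 2-fold, and the count lower, 7, was 11 with no filter and 2 at 2-fold.

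For MOL5/6 over OPC in control dOLCs, the count higher, 8, was 20 with TMM, 18 with median of ratios and 4 at 2-fold, and the count lower, 17, was 9 with TMM, median of ratios or thinned cells, 28 with no filter, 5 with the 10% of cells required and 10 at 2-fold. In control vOLCs, the count higher, 13, was 25 with TMM or median of ratios and 6 at 2-fold, and the count lower, 18, was 9 with TMM or median of ratios, 6 with thinned cells or the 10% of cells required and 10 at 2-fold. In ectopic vOLCs, the count higher, 8, was 23 with TMM, 21 with median of ratios, 5 with the 10% of cells required and 5 at 2-fold, and the count lower, 20, was 8 with TMM, 10 with median of ratios or thinned cells and 7 with the 10% of cells required.

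Stricter filters and folds test or call fewer genes by construction; the cause of the other moves was not tested. Depth limits the small classes, where the control vOLC library gave 121 OPCs and 3 cycling OPCs.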
